A study of Homo sapiens with 9 samples.

Results

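Making a ribosome starts in the nucleolus, where RNA polymerase I transcribes the ribosomal RNA precursor. Small nucleolar ribonucleoproteins (snoRNPs) of the box C/D and box H/ACA kinds guide its methylation and pseudouridylation, the U3 snoRNP and the small subunit processome cut and fold it, and further factors build the 40S and 60S subunits. The transcription factor MYC is known to activate many of these genes in proliferating cells, and MYC with its partner MAX binds the DNA sequence CACGTG, the canonical E-box.

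The 40 ribosome biogenesis and nucleolar genes described here were named from this pathway, with earlier results of these data known. All 40 were among the 11729 genes with enough read pairs to be tested. They comprised 5 nucleolar scaffold, chaperone and regulator genes (NCL, NPM1, NOLC1, GNL3 and DDX21), 4 box C/D and U3 snoRNP genes (FBL, NOP56, NOP58 and RRP9), 4 box H/ACA snoRNP genes (DKC1, NHP2, NOP10 and GAR1) and 3 RNA polymerase I genes (POLR1A, POLR1B and POLR1C). A further 12 encode the small subunit processome and 40S assembly factors (UTP4, UTP14A, UTP20, WDR43, NOP14, DDX10, RRP12, BYSL, LTV1, NOB1, PNO1 and TSR1) and 12 encode 60S assembly factors (BOP1, PES1, WDR12, NOP16, NOP2, RRS1, RRP1, MRTO4, EBNA1BP2, FTSJ3, NIP7 and DDX18). The value of a gene is the number of read pairs whose 5′ and 3′ ends both lay on its strand within 1 kb of its annotated body.

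The cells were K562, an established chronic myeloid leukaemia line of erythroid character that carries the BCR-ABL1 fusion kinase. They were exposed to 1 μM imatinib, an inhibitor of that kinase, for 24 h, or to the solvent DMSO, with 2 biological replicates of each. TIF-Seq2 sequences the capped 5′ end and the polyadenylated 3′ end of the same RNA molecule, so each read pair gives the transcription start site (TSS) and the polyadenylation site (PAS) of 1 transcript. Both groups were 1 cell line, so the values describe K562 only.

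The libraries held 2263121 to 5135829 read pairs, the fewest in imatinib replicate 2. Replicates correlated at r = 0.979 for DMSO and 0.952 for imatinib across genes (log2 scale). The genes in these correlations are not independent replicates. The 8 erythroid genes of K562 examined were all present, with a summed level of 7218 and 6053 CPM (read pairs per 1000000, on TMM-normalised library sizes) in the DMSO libraries and 18887 and 19100 in the imatinib libraries, and 5 of 8 were called higher (among them HBZ and KLF1). The 3 lymphoid markers examined had at most 3 pairs each in all, as had 3 of 4 monocytic markers. LYZ was the exception among the monocytic markers, whose summed level ranged from 107 to 129 CPM in DMSO and from 35.1 to 111 in imatinib. The part of these genes in the results below was not tested.

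Many of the 40 genes carry the canonical E-box next to their start. The promoter sequences of RefSeq (GRCh38.p14, from 250 bases before to 50 after each annotated start) matched 34 of the 40 by symbol, and 18 of the 34 (52.9%) held CACGTG, which reads the same on both strands. Of the 8715 tested genes with such a sequence 13.4% held it, as did 7.26% of all 35116 promoter entries. In the 50 bases after the start, the motif was present in 12 of the 34 genes (35.3%) against 1.76% of the tested genes and 14.6% of the 103 other ribosome biogenesis genes with a promoter sequence. Of those 103, from a list of 120, 28 (27.2%) held the motif anywhere in the sequence. These shares are a description, since a match is not a binding site.

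The sites below come from 8 genes across the range of responses, and each is shown as 30 bases of hg38 on the gene's strand, 5′ to 3′, with the E-box in capitals. RRP9 had the most negative change of all the members, and FBL was near the other end of the range.
RRP9 (chr3:51941892-51941921, minus strand): gggttcagctgcCACGTGagttctgcggcc
PNO1 (chr2:68157885-68157914, plus strand): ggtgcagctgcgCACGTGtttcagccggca
UTP20 (chr12:101280083-101280112, plus strand): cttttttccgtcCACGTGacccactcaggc
LTV1 (chr6:143843354-143843383, plus strand): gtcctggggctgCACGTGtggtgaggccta
MRTO4 (chr1:19251807-19251836, plus strand): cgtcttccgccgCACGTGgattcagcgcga
EBNA1BP2 (chr1:43172231-43172260, minus strand): gcgattcggtggCACGTGgagccacggcgt
PES1 (chr22:30591880-30591909, minus strand): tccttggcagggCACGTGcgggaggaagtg
FBL (chr19:39846356-39846385, minus strand): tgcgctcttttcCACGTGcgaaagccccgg

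In LTV1 and PES1 the most used first base of the transcript was the A of the E-box itself. In 15 of the 18 genes the E-box began within 50 bases of the most used first base. NOP10 was the member with a pair of E-boxes in 1 promoter, and the 250 bases before its RefSeq start (chr15:34343137-34343386, minus strand) are shown with both in capitals.
NOP10: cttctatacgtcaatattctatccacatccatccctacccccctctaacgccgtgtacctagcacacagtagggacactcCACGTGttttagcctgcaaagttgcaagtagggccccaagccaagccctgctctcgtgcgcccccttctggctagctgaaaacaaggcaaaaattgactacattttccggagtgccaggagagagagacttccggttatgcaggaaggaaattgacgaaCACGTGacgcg

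Genes with and without the motif both moved down. The median log2 fold change after imatinib was -1.39 over the 18 genes that held it, 14 of which were called lower, and -1.22 over the 16 that did not, 8 of which were called lower. This split was not tested.

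After imatinib the 40 genes took up a smaller part of the libraries. Together they held 1.07% of the read pairs in each DMSO library, and 0.485% and 0.637% in imatinib replicates 1 and 2. Of the 40 genes 26 were called lower at an adjusted p below 0.05 (edgeR quasi-likelihood test with Benjamini-Hochberg adjustment over all 11729 genes) and none higher, nor was any higher at an unadjusted p below 0.05. For comparison, 5.99% of all tested genes were called lower and 8.88% higher. At an unadjusted p below 0.05, 1636 of the 11729 were lower and 2031 higher. All 40 log2 fold changes were negative, with a median of -1.29 (2.44-fold lower), against a median of 0.03 over all tested genes. In 36 of the 40 genes both imatinib libraries lay below both DMSO libraries, as they did in 28.9% of all tested genes. FBL, DKC1, GAR1 and NOB1 were the exceptions. These are shares of polyadenylated RNA, so a lower level per cell, fewer transcribing cells and a rise of other RNAs cannot be told apart.

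**Figure D1:**
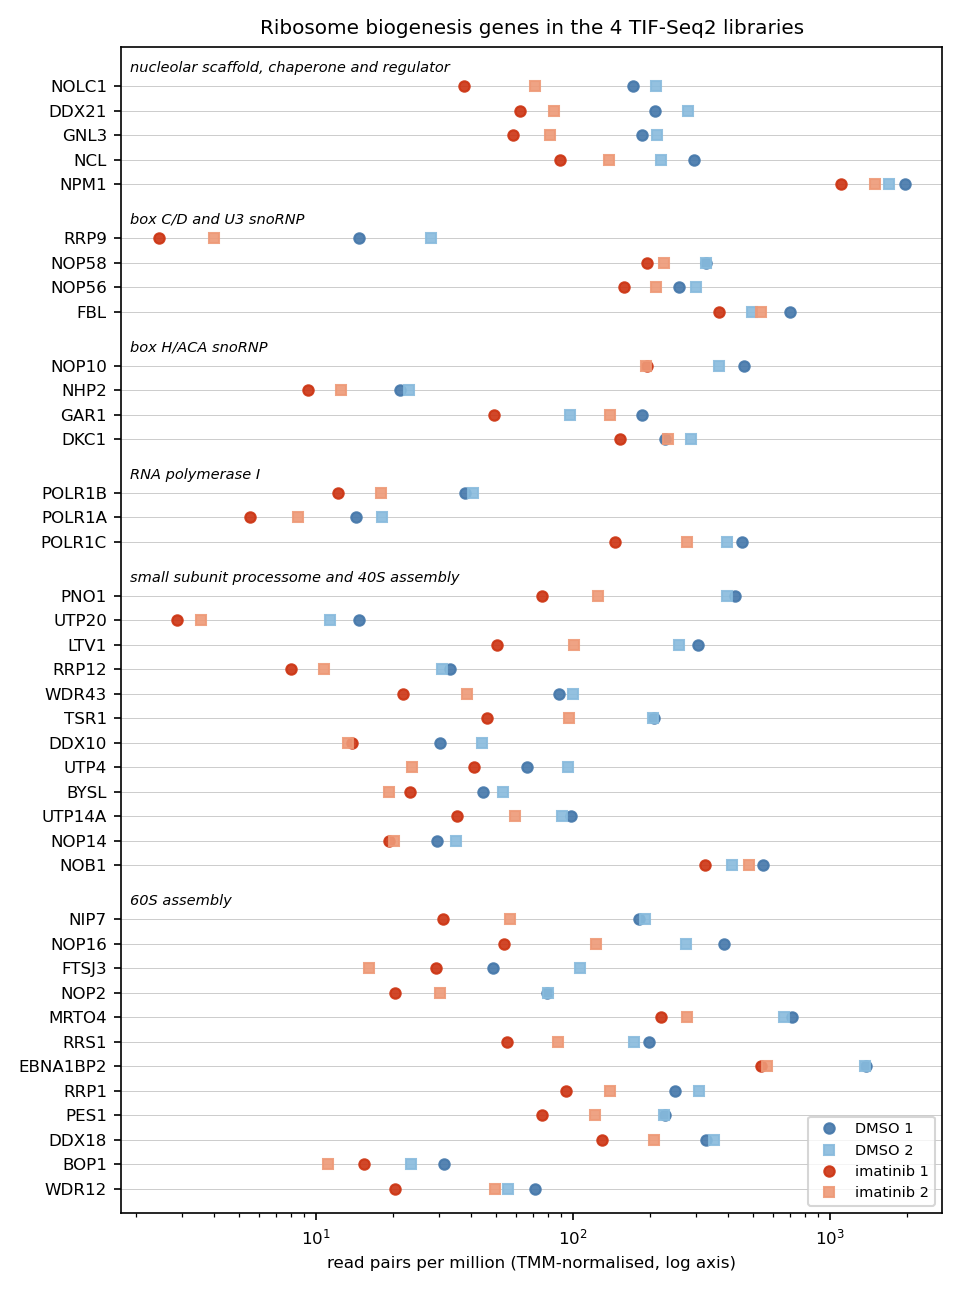
CPM in each of the 4 libraries (horizontal, log axis) for the 40 genes, grouped by role and, within a role, ordered by change. Both imatinib libraries (red) lie left of both DMSO libraries (blue) in 36 genes, and imatinib replicate 2 (square) lies right of imatinib replicate 1 (circle) in 34.

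The imatinib replicates differed in the size of the shift. Replicate 2 was above replicate 1 in 34 of the 40 genes (85.0%), against 49.8% of all tested genes. The median of the 40 log2 fold changes was -1.57 without imatinib replicate 2 and -1.12 without imatinib replicate 1. Leaving out DMSO replicate 2 lowered the number of called genes from 26 to 17, and leaving out DMSO replicate 1 lowered it to 19. Leaving out a library also changed the number of calls over all genes, which is given at the end. DESeq2 called 28 lower, which held all 26.

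**Figure D2:**
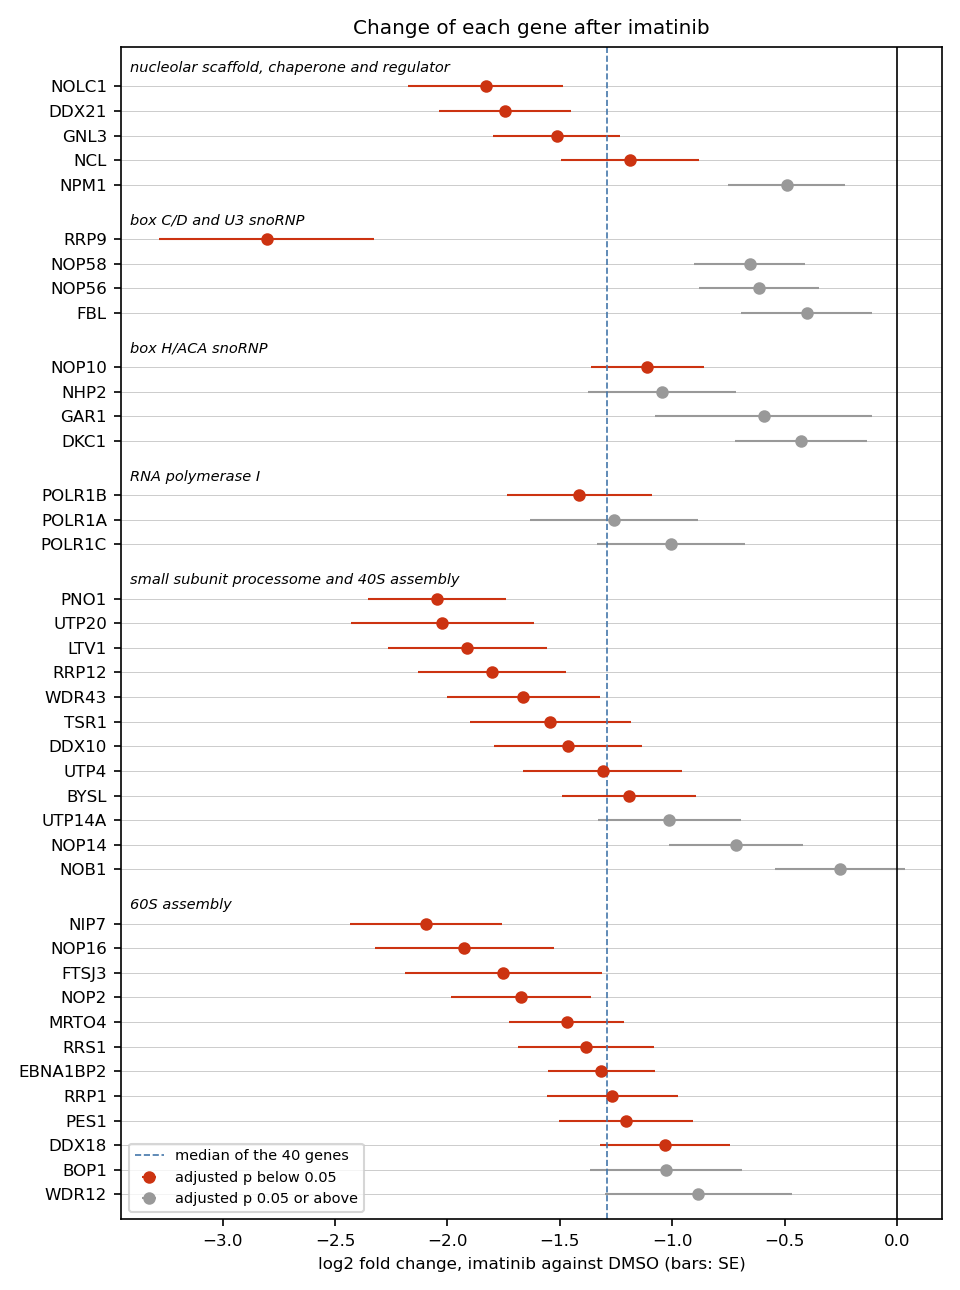
The log2 fold change of each gene, imatinib against DMSO, with its standard error (2 libraries per group), in red where the adjusted p was below 0.05. All 40 points lie left of 0, from RRP9 at -2.80 to NOB1 at -0.25, and the dashed line marks the median of -1.29.

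The nucleolar scaffold, chaperone and regulator genes fell together, apart from NPM1. Of the 5 genes 4 were called lower, and the group's median log2 fold change was -1.51. For comparison with this and the following groups, 5.99% of all tested genes were called lower. NOLC1 (ENSG00000166197.17, chr10:102152176-102163871, plus strand), a scaffold protein that travels with snoRNPs between the nucleolus and Cajal bodies, had 171 and 211 CPM in the DMSO libraries and 37.7 and 70.9 in the imatinib libraries. Its log2 fold change was -1.83 ± 0.35 (SE, n = 2 and 2, edgeR adjusted p = 0.0109). DDX21 (ENSG00000165732.14, chr10:68956135-68985068, plus strand), an RNA helicase of ribosomal RNA transcription and processing, had 209 and 280 CPM in DMSO and 61.9 and 84.7 in imatinib. It fell by 1.74 ± 0.30 on the log2 scale (edgeR adjusted p = 0.00738). In both genes the imatinib libraries lay below the DMSO libraries.

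GNL3 (nucleostemin, a nucleolar GTP-binding protein) and NCL (nucleolin) were also called lower, at -1.51 and -1.19. NPM1 (nucleophosmin, ENSG00000181163.14, chr5:171387116-171411810, plus strand), an abundant nucleolar chaperone, had 1956 and 1700 CPM in DMSO and 1105 and 1499 in imatinib. These groups did not overlap, but the log2 fold change of -0.49 ± 0.26 did not pass the test (edgeR adjusted p = 0.235).

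Among the box C/D and U3 snoRNP genes only RRP9 was called. RRP9 (ENSG00000114767.7, chr3:51933429-51941904, minus strand) encodes the protein specific to the U3 snoRNP. It had 14.7 and 28.0 CPM in DMSO and 2.44 and 4.012 in imatinib, and the imatinib libraries held 11 and 9 pairs. The log2 fold change of -2.80 ± 0.48 (6.99-fold lower, edgeR adjusted p = 0.0076) was the largest of the 40.

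The core proteins of the box C/D snoRNP had smaller changes that did not pass the test. FBL (fibrillarin, the methyltransferase, ENSG00000105202.9, chr19:39834458-39846379, minus strand) had 702 and 498 CPM in DMSO and 370 and 539 in imatinib, so its groups overlapped, at -0.40 ± 0.29 (edgeR adjusted p = 0.384). NOP56 (ENSG00000101361.17, chr20:2652593-2658393, plus strand), a core structural protein, had 259 and 302 CPM in DMSO and 158 and 210 in imatinib, which do not overlap, at -0.61 ± 0.27 (edgeR adjusted p = 0.153). Without imatinib replicate 2 the NOP56 change was -0.86 and passed the test (edgeR adjusted p = 0.0231). Its partner NOP58 was at -0.66.

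Of the box H/ACA snoRNP genes, NOP10 was the only one called lower. NOP10 (ENSG00000182117.7, chr15:34339159-34343180, minus strand), the smallest core protein, had 462 and 370 CPM in DMSO and 193 and 192 in imatinib. Its log2 fold change was -1.11 ± 0.25 (edgeR adjusted p = 0.0214), and the call was lost without DMSO replicate 1 (adjusted p = 0.201) or DMSO replicate 2 (adjusted p = 0.0644). DKC1 (dyskerin, the pseudouridine synthase, ENSG00000130826.19, chrX:154762742-154777689, plus strand) had 229 and 289 in DMSO and 152 and 234 in imatinib, with overlapping groups and a change of -0.43 ± 0.29 (edgeR adjusted p = 0.358). It passed the test without imatinib replicate 2 (-0.80, adjusted p = 0.0365). NHP2 and GAR1, the other core proteins, were at -1.05 and -0.59 and were not called. Both passed without imatinib replicate 2, NHP2 at -1.28 (adjusted p = 0.00665) and GAR1 at -1.55 (adjusted p = 6.4e-05), and without imatinib replicate 1 GAR1 was at -0.00023. NHP2 also passed with no filter on low counts (adjusted p = 0.0288).

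All of the RNA polymerase I genes lay lower in both imatinib libraries, as did 28.9% of all tested genes, and 1 of the 3 was called. POLR1B (ENSG00000125630.16, chr2:112541915-112579818, plus strand), the second largest subunit, had 37.9 and 40.7 CPM in DMSO and 12.2 and 17.8 in imatinib, a log2 fold change of -1.41 ± 0.32 (edgeR adjusted p = 0.0216). That call was lost without DMSO replicate 2 (adjusted p = 0.0783). POLR1C (ENSG00000171453.20, chr6:43509702-43562419, plus strand), which RNA polymerases I and III share, had 454 and 396 in DMSO and 146 and 279 in imatinib. Its change of -1.005 ± 0.33 did not pass (edgeR adjusted p = 0.0733), but passed without imatinib replicate 2 (-1.57, adjusted p = 1.98e-05), in DESeq2 (adjusted p = 0.0319), with no filter on low counts (adjusted p = 0.00271) and with the study's own filters on read pairs (adjusted p = 0.0245). POLR1A, the largest subunit, was at -1.26 (edgeR adjusted p = 0.0535). Only 19.1% of the POLR1A pairs and 44.2% of the POLR1B pairs started within 200 bases of an annotated coding start. In POLR1C 86.4% of the pairs ended before genomic A, as described below.

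The genes of the small subunit processome and 40S assembly were mostly lower, 9 of 12 by the test, with a median log2 fold change of -1.503. PNO1 (ENSG00000115946.8, chr2:68157888-68176238, plus strand), a late 40S assembly factor, had 427 and 397 CPM in DMSO and 75.7 and 125 in imatinib. The change was -2.05 ± 0.31 (4.13-fold lower, edgeR adjusted p = 0.00482). UTP20 (ENSG00000120800.5, chr12:101280105-101386618, plus strand), a very large processome protein, had 14.7 and 11.3 CPM in DMSO and 2.89 and 3.57 in imatinib, at -2.02 ± 0.41 (edgeR adjusted p = 0.0138). The imatinib values rest on 13 and 8 read pairs, and the call was just lost without DMSO replicate 1 (adjusted p = 0.0501).

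LTV1 (a 40S assembly and export factor) at -1.91, RRP12 at -1.80, WDR43 at -1.66, TSR1 at -1.54, DDX10 at -1.46, UTP4 at -1.31 and BYSL at -1.19 were the other called genes of this group. UTP14A and NOP14 were at -1.01 and -0.72 and were not called. NOB1 (ENSG00000141101.13, chr16:69741871-69754926, minus strand), the endonuclease that makes the final 3′ end of 18S ribosomal RNA, had 551 and 414 CPM in DMSO and 327 and 483 in imatinib. The groups overlapped, the change was -0.25 ± 0.29 (edgeR adjusted p = 0.593), and it was 0.01 without imatinib replicate 1.

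Of the 12 genes for 60S assembly 10 were called lower, with a median log2 fold change of -1.35. Both imatinib libraries lay below both DMSO libraries in all 12, as they did in 28.9% of all tested genes. NIP7 (ENSG00000132603.15, chr16:69337996-69343106, plus strand), a pre-60S factor, had 181 and 191 CPM in DMSO and 31.1 and 57.1 in imatinib, at -2.09 ± 0.34 (edgeR adjusted p = 0.00605). NOP16 (ENSG00000048162.22, chr5:176383946-176388927, minus strand), also a pre-60S factor, had 388 and 276 in DMSO and 53.7 and 123 in imatinib, at -1.93 ± 0.40 (edgeR adjusted p = 0.015). It was not called when read pairs had to lie inside the annotated body with no margin (adjusted p = 0.102). EBNA1BP2 (ENSG00000117395.13, chr1:43164175-43270936, minus strand), another pre-60S protein, had 1388 and 1370 CPM in DMSO and 538 and 571 in imatinib, so the replicates of each group were close. Its log2 fold change was -1.32 ± 0.24 (edgeR adjusted p = 0.00931), and the call was lost with the replicate number as a block (adjusted p = 0.0573).

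FTSJ3 and NOP2, which methylate ribosomal RNA, were called lower at -1.75 and -1.67. MRTO4 at -1.47, RRS1 at -1.38 and RRP1 at -1.27 were also called. DDX18 was called at -1.03 and kept the call in 6 of 12 refits, with values from -1.42 to -0.72. The call was lost without DMSO replicate 1 (adjusted p = 0.125), DMSO replicate 2 (adjusted p = 0.204) or imatinib replicate 1 (adjusted p = 0.0700). PES1, BOP1 and WDR12 form 1 complex, PeBoW. PES1 was called lower at -1.20, while BOP1 at -1.03 and WDR12 at -0.88 did not pass the test. The PES1 call was lost without DMSO replicate 1 (adjusted p = 0.0868) or 2 (adjusted p = 0.0922). BOP1 passed without imatinib replicate 1 (-1.28, adjusted p = 0.0171), and WDR12 passed without imatinib replicate 2 (-1.68, adjusted p = 6.6e-05) and was at -0.34 without imatinib replicate 1. Both also passed with no filter on low counts (adjusted p = 0.0251 and 0.0351). All read pairs of NOP2 also fell within an overlapping annotated gene (ENSG00000285238), so the 2 cannot be told apart, and 15.6% of the LTV1 pairs and 9.08% of the RRS1 pairs lay within a second gene as well.

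Other ribosome biogenesis genes were mostly lower as well. Their list was also chosen with earlier results of these data known, so it is no independent support. Of the 120 other ribosome biogenesis genes 41 (34.2%) were called lower and none higher, against 5.99% and 8.88% of all tested genes. The median log2 fold change of the 120 was -0.89, and 111 were negative, as were 5676 of all 11729 tested genes. At an unadjusted p below 0.05, 75 of the 120 were lower and 1 was higher, against 1636 and 2031 of all 11729. DESeq2 made no higher call either. The largest called changes were in POLR1G (an RNA polymerase I subunit) at -2.18, MAK16 at -2.02 and PPAN at -1.94 (both pre-60S factors), and MYBBP1A (a nucleolar MYB-binding protein) at -1.82. UBTF, the RNA polymerase I initiation factor, had the most positive value, 0.62, and did not pass the test (edgeR adjusted p = 0.129). UBTF was chosen after its value was seen. Without DMSO replicate 1 or 2 the count of lower genes was 22 or 14, and it was 76 without imatinib replicate 2.

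**Figure D3:**
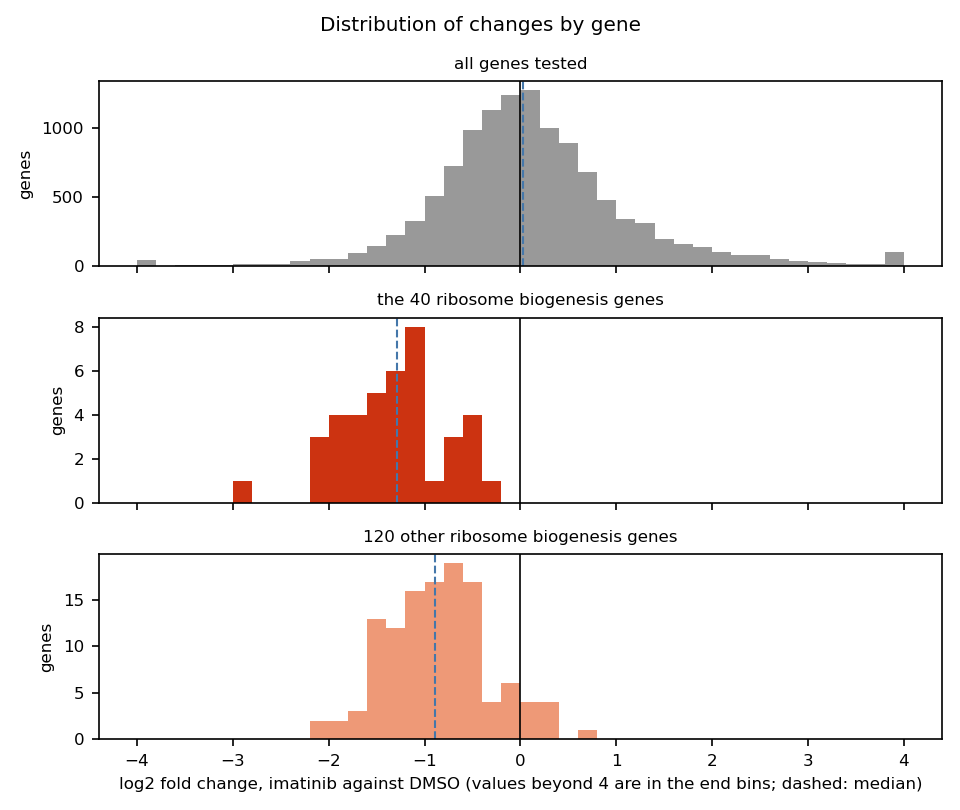
Histograms of the log2 fold change by gene (horizontal, bins of 0.2) for all 11729 genes tested, the 40 genes and the 120 other ribosome biogenesis genes (vertical: number of genes). The dashed medians are 0.03, -1.29 and -0.89, and no bar of the middle panel lies right of 0.

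MYC itself had 194 and 152 CPM in DMSO and 80.1 and 125 in imatinib, a log2 fold change of -0.76 that did not pass the test (edgeR adjusted p = 0.126), and MAX was at -0.82 (adjusted p = 0.119). Of the MYC antagonists, MXD4 was called higher at 1.82 (edgeR adjusted p = 0.0249) while MXD3 (0.79), MXI1 (0.67), MXD1 (0.47) and MNT (-0.30) were not called, and MYCN had no read pairs.

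The most used starts of the 40 genes were mostly at annotated places, and the most used ends less often. The most used first base lay within 50 bases of the start of the canonical Gencode transcript in 36 genes, and it was an A in 30. The most used 3′ end lay within 50 bases of the canonical end in 25 genes. In 11 genes it lay over 500 bases before that end, for example 1025 bases in PNO1, 1195 in RRP1, 1581 in TSR1 and 682 in MRTO4. The largest distance, 14699 bases, was in DDX18, and DDX21 was at 1370. Both are among the genes with many ends before genomic A, given below. In NCL 9.06% of the pairs started within 200 bases of an annotated coding start, in UTP20 9.16%, in POLR1A 19.1% and in POLR1B 44.2%. The values of these genes therefore mostly count pairs with a 5′ end elsewhere.

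Some 3′ ends were followed by genomic A. In 6 genes over 40% of the pairs ended where at least 7 of the next 10 bases were A, with 86.4% in POLR1C, 69.9% in NOP58, 57.7% in DDX21, 49.4% in DDX10, 47.3% in GNL3 and 44.4% in DDX18. The study left such ends out of its isoforms. With the study's filters on read pairs DDX21 stayed called at -1.99 (edgeR adjusted p = 0.00432) and GNL3 at -1.47 (adjusted p = 0.014), and DDX10 (-1.38, adjusted p = 0.0543) and DDX18 (-1.18, adjusted p = 0.0528) just missed the threshold.

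Linking starts to ends gave 224 boundary isoforms (TIFs, each a linked pair of TSS and PAS clusters) in 34 of the 40 genes. In 107 of the 224 (47.8%) both ends lay within 200 bases of those of the nearest annotated transcript. No TIF was found for NHP2, POLR1A, POLR1B, UTP20, RRP12 and BOP1. Of the 224 TIFs 114, in 31 genes, had enough read pairs to be tested. Called lower were 37 of these 114 (32.5%), in 21 genes, and none were called higher, nor was any higher at an unadjusted p below 0.05. Over all 16020 tested TIFs 4.73% were called lower and 6.38% higher. The median log2 fold change of the 114 was -1.23, against 0.01 over all tested TIFs, and 107 were negative. The count of lower TIFs was 15 without DMSO replicate 1, 9 without DMSO replicate 2 and 65 without imatinib replicate 2.

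**Figure D4:**
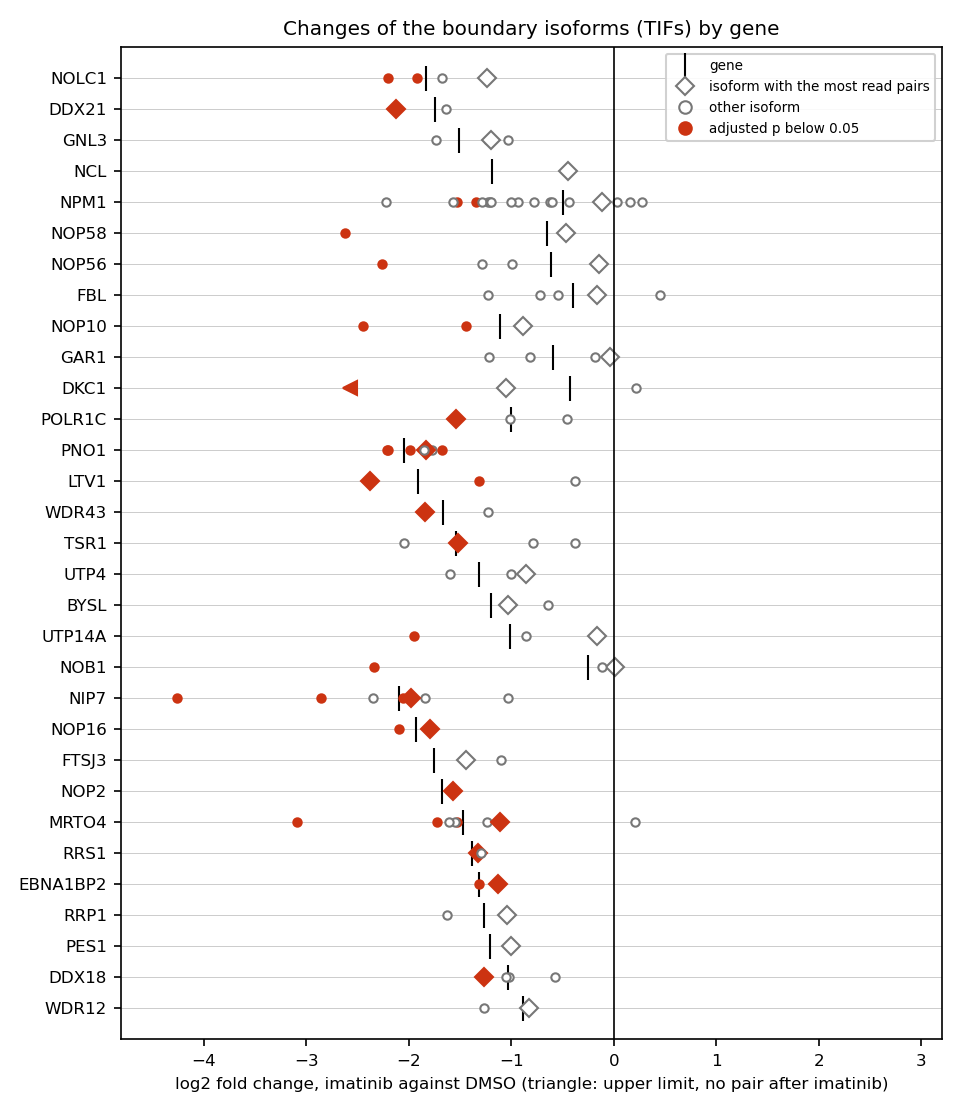
The log2 fold change of each tested TIF (horizontal) in the 31 genes with at least 1, with the TIF of most read pairs as a diamond, called TIFs in red and the value of the whole gene as a black bar. The triangle of DKC1 is an upper limit for counting error only, since that TIF had no read pair after imatinib, and 7 of the 114 TIFs lie right of 0.

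In 31 genes the TIF with the most read pairs was tested. It was negative in 30 of them and called lower in 13. NOB1 was the exception at 0.02. PNO1 illustrates a gene whose isoforms moved together: 8 TIFs were tested, all were negative between -1.68 and -2.21, and 5 were called lower although they ended at 4 different PASs from 1025 bases before the canonical end up to that end. The PNO1 TIF with the most pairs, ending at the first of these, had 767 and 1055 pairs in DMSO and 207 and 137 in imatinib. The 7 tested TIFs of NIP7 were negative as well, 4 of them called lower.

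Whether the TIFs of a gene changed in unequal proportion was tested with diffSpliceDGE, which compares each TIF with the rest of its gene. Of 28 genes with more than 1 tested TIF, 4 were called (14.3%), namely NOB1, DKC1, NPM1 and NOP56, against 6.67% of all 3671 genes. The DKC1 call includes a TIF, described below, that had no pair after imatinib. That TIF passed the filter on low counts through its DMSO pairs alone, so the DKC1 call is no support for the comparison. It was lost when tags within 20 bp were joined (adjusted p = 0.167). The calls of NPM1 and NOP56 were lost with no filter on low counts (adjusted p = 0.496 and 0.0583). None of the 4 kept its call in all fits with a library left out. No gene was called without DMSO replicate 1, DMSO replicate 2 or imatinib replicate 2, and 1, NPM1, was called without imatinib replicate 1. Their values are therefore given as read pairs.

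In NOB1 a minor upstream start fell and the main start was near 0. The TIF starting at chr16:69754965 had 60 and 63 pairs in DMSO and 11 and 6 in imatinib, and its log2 fold change was -2.34 ± 0.47 (edgeR adjusted p = 0.0147). The main TIF, which started 41 bases downstream at chr16:69754924, had 1550 and 1724 pairs in DMSO and 1246 and 967 in imatinib, at 0.02 ± 0.27 (adjusted p = 0.975). As a share of the pairs in NOB1 TIFs, the upstream start made up 3.64% and 3.44% in DMSO and 0.848% and 0.607% in imatinib. Relative to the rest of the gene the change was -2.31 on the log2 scale (diffSpliceDGE adjusted p for the gene 0.0172, and from 0.07 to 0.344 with a library left out).

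In NOP56, transcripts that began at a small nucleolar RNA fell. Its introns encode box C/D and H/ACA snoRNAs, among them SNORD86 (chr20:2656097-2656182, plus strand). A TIF that started at chr20:2656099, the third base of SNORD86, and ended at the NOP56 PAS had 32 and 58 pairs in DMSO and 5 and 7 in imatinib. It passed the filter on low counts through its DMSO pairs, which limits what its call can show. Its log2 fold change was -2.26 ± 0.56 (edgeR adjusted p = 0.0306), while the full-length TIF from the annotated start had 478 and 734 pairs in DMSO and 409 and 309 in imatinib, at -0.14 ± 0.28 (adjusted p = 0.794). The SNORD86 start made up 5.90% and 6.85% of the pairs in NOP56 TIFs in DMSO and 1.17% and 2.15% in imatinib.

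Such starts were rare elsewhere among the 40 genes. Gencode places 25 snoRNAs on the same strand inside 7 of them, and 18 of these had no read pair starting within 5 bases of their first base. Only SNORD86, with 120 pairs, and SNORD57, also in NOP56, with 17, had at least 10. The SNORD57 starts numbered 6 and 5 in DMSO and 6 and 0 in imatinib.

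DKC1 and NPM1 were the other genes called. A DKC1 TIF that started 88 bases downstream of the main start had 10 and 13 pairs in DMSO and none in either imatinib library. Set against a floor of 3 pairs over both imatinib libraries it was 5.95-fold lower, a limit that covers counting error only. This TIF passed the filter on low counts through its DMSO pairs alone, so it could only come out lower. The main DKC1 TIF was at -1.05 (edgeR adjusted p = 0.0609), and a TIF with the same start that ended 94 bases earlier had 101 and 189 pairs in DMSO and 104 and 106 in imatinib. In NPM1 the TIF with the most pairs had 3391 and 4354 pairs in DMSO and 2799 and 1985 in imatinib, a log2 fold change of -0.11. Its share of the pairs in NPM1 TIFs was 58.9% and 57.9% in DMSO and 66.1% and 66.3% in imatinib. The 2 NPM1 TIFs called lower had the same start. The one ending at chr5:171400859 was at -1.34 (edgeR adjusted p = 0.0401) and the one ending at chr5:171411953 at -1.53 (adjusted p = 0.0382).

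LTV1 and UTP14A, chosen after their values were seen, had neighbouring starts with unlike changes, although the test of unequal proportion did not call them. Calls of single starts are given here as well for fits with a library left out. In LTV1 the start at chr6:143843367, the A of the E-box, had 350 and 509 pairs in DMSO and 56 and 51 in imatinib (-2.38, edgeR adjusted p = 0.00545), and the start 21 bases upstream had 211 and 293 in DMSO and 70 and 62 in imatinib (-1.31, adjusted p = 0.044). The first call was kept in all 4 such fits and the second was kept only without imatinib replicate 2. In UTP14A the start at chrX:129906187 had 81 and 108 pairs in DMSO and 16 and 16 in imatinib (-1.95, edgeR adjusted p = 0.0232), and the one 23 bases upstream had 84 and 124 in DMSO and 61 and 58 in imatinib (-0.16, adjusted p = 0.831). The UTP14A call was lost without either DMSO library, with adjusted p up to 0.0679, as was that of the first NPM1 TIF, with adjusted p up to 0.259. The second NPM1 TIF kept its call only without imatinib replicate 2. The NOB1 call was lost without DMSO replicate 1 (adjusted p = 0.0621), that of the SNORD86 start in NOP56 without DMSO replicate 2 or imatinib replicate 1 (adjusted p up to 0.119), and that of the DKC1 TIF without imatinib replicate 1 (adjusted p = 0.131), in 1 of the 2 fits that gave it a value.

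The sequences around these starts are shown as 30 bases of hg38, 5′ to 3′ on the gene's strand, with the first transcribed base in capitals. The start of each pair that fell further is given first, and the main starts of FBL and NPM1 follow for comparison.
NOB1 (chr16:69754956-69754985, minus strand): ccagaggcccagacttggacAtaggagccg
NOB1 (chr16:69754915-69754944, minus strand): gtgcgcatgcgcgctcccctCtcacgcagc
UTP14A (chrX:129906167-129906196, plus strand): tcggcttccgttcttggtccAtgtgagaga
UTP14A (chrX:129906144-129906173, plus strand): gcccgcacggaaattgctttCcttcggctt
LTV1 (chr6:143843347-143843376, plus strand): tcgccgggtcctggggctgcAcgtgtggtg
LTV1 (chr6:143843326-143843355, plus strand): acggccggctgggtgacgttAtcgccgggt
FBL (chr19:39846370-39846399, minus strand): cgtcgccgcgcgcctgcgctCttttccacg
NPM1 (chr5:171387833-171387862, plus strand): gcggggagcctgcgtcctttCcctggtgtg

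In NOB1 and UTP14A the start with the smaller change began on a C within a run of pyrimidines, and the start that fell began on an A. The main starts of FBL and NPM1 also began on a C within such a run. Other genes differed. Both LTV1 starts began on an A, and in NOP56 the start that fell began on a T and the main start on an A. In DKC1 the main start began on a C and the start that fell on a G. Messenger RNAs that begin with C and a pyrimidine run are known as terminal oligopyrimidine mRNAs, a class that includes many genes of the translation machinery.

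Within FBL, NOB1 and UTP14A the first bases moved toward the annotated start. The share of read pairs that began within 5 bases of it was 25.7% and 24.5% for FBL in DMSO and 42.0% and 35.9% in imatinib (95% Wilson intervals from 22.9 to 27.5 and from 33.2 to 44.3). For NOB1 it was 57.6% and 54.2% in DMSO and 78.0% and 79.9% in imatinib (intervals from 52.1 to 59.8 and from 75.8 to 82.2). For UTP14A it was 14.3% and 16.0% in DMSO and 38.8% and 29.3% in imatinib (intervals from 10.98 to 19.6 and from 22.3 to 46.5). In LTV1 it was 17.6% and 15.7% against 22.7% and 19.5%, with overlapping intervals. The intervals cover counting error only, and the genes and the distance were chosen after the values were seen, so no test is given.

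**Figure D5:**
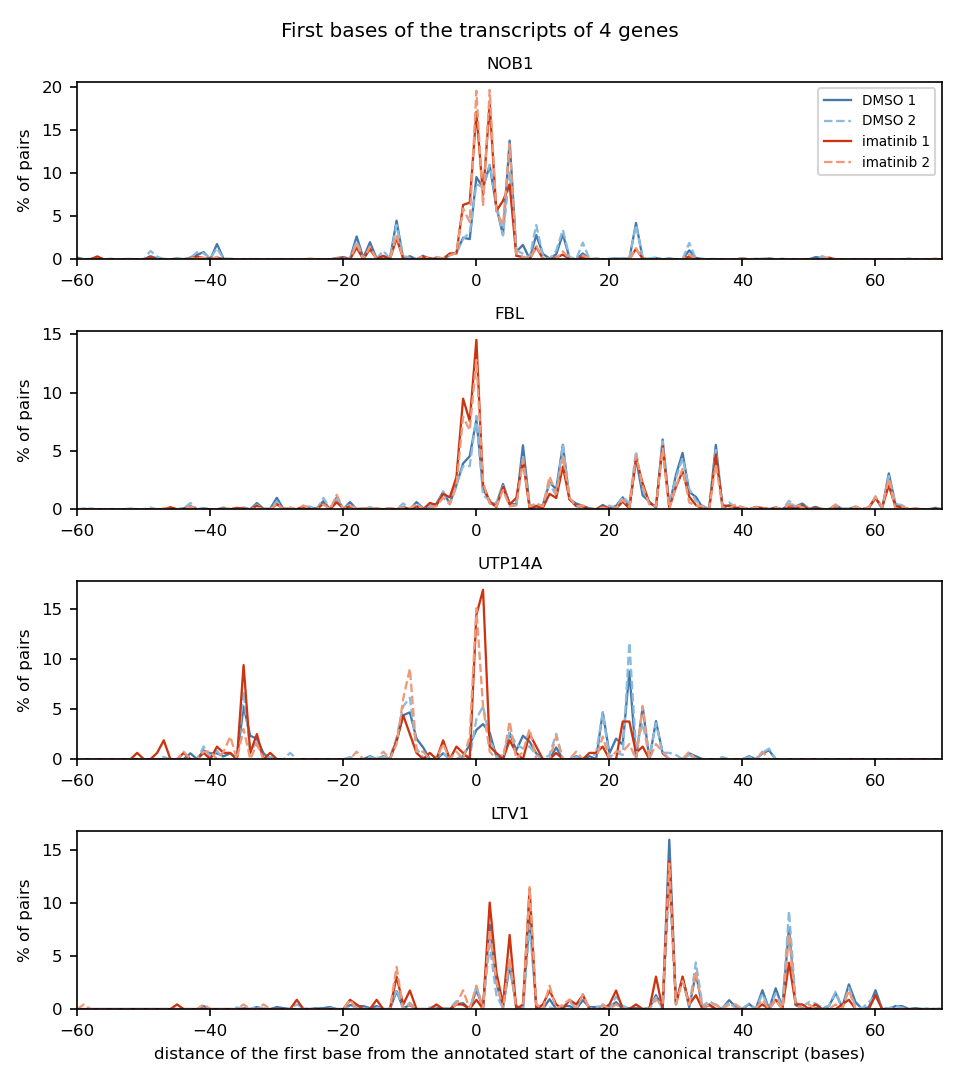
Share of a gene's read pairs (vertical, percent) by the distance of the first base from the annotated start (horizontal, bases), for NOB1, FBL, UTP14A and LTV1 in the 4 libraries. In the upper 3 panels the red imatinib lines rise above the blue DMSO lines at 0, where in NOB1 78.0% and 79.9% of the imatinib pairs began within 5 bases.

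The base on which transcripts began was also compared over all genes. Over whole libraries 20.9% of the pairs began on a C in each DMSO library, and 26.6% and 26.2% in the imatinib libraries. Of the 29 among the 40 genes with at least 50 pairs in every library, 13 (44.8%) had a higher share of starts on C or T in both imatinib libraries than in both DMSO libraries, and the figure was 46.7% over all 5258 such genes. The other direction held for 5 of the 29 (GNL3, NOP56, LTV1, RRP1 and NOP58), against 7.06% of those genes. In NOB1 the share of pyrimidine starts was 51.8% and 52.7% in DMSO and 75.0% and 69.6% in imatinib, the largest difference among the 40 genes, and in FBL it was 34.2% and 33.5% against 50.7% and 45.4%. In NPM1, which mostly begins on a pyrimidine, it was 84.9% and 83.5% against 88.1% and 89.3%. Whether this shift of whole libraries had a part in the changes of single starts was not tested.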

How the data were processed

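The authors circularised full-length cDNA of capped, polyadenylated RNA, sequenced both ends, aligned them to hg38 (STAR 2.5.3a, after cutadapt 1.16), removed PCR duplicates by molecular identifiers and deposited, per library, raw counts of unique read pairs for each pair of end positions. These counts were used as deposited. Pairs with both ends within 1 kb of a Gencode v44 gene on its strand were summed per gene, and tested in edgeR 4.0.16 (quasi-likelihood, TMM, filterByExpr, all genes together) over the 2 DMSO and 2 imatinib libraries. A call is an adjusted p below 0.05. TSS and PAS clusters were joined at 10 bp after power-law normalisation, TIFs needed at least 4 pairs, spanned 300 bp to 2 Mb and had fewer than 7 A in the next 10 bases, and relative change was tested with diffSpliceDGE. DESeq2 1.42.0 was an alternative. The genes and lists were chosen with earlier results of these data known. Values by library were given for the 2 called genes of largest change and the gene with most pairs in each role, and for genes with a called change of TIF share. The 3′T-fill and PacBio data were not used here. Same-numbered libraries are not stated to be paired. Some marker genes are not reported here.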

Additional observations from a re-analysis of the deposited data

How the results depend on the processing

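The 40 genes kept a negative median log2 fold change in all 12 refits, between -1.12 and -1.57 with a library left out, and no refit called a member higher. The log2 fold change of NOB1 ranged from -0.59 to 0.012 with a library left out, and changed sign without imatinib replicate 1. Of the 26 called genes 12 were called in every refit that gave a value. NOP2 has no value for pairs in 1 gene only. Without DMSO replicate 1 the calls of BYSL, DDX18, NCL, NOP10, PES1, RRS1 and UTP20 were lost, and without DMSO replicate 2 those of BYSL, DDX10, DDX18, FTSJ3, NOP10, PES1, POLR1B, RRP1 and UTP4, with adjusted p from 0.0501 to 0.211. UTP4 also lost its call on total pairs (adjusted p = 0.058). Settings that moved a count by over 1.5 times are given here, and the cause was not tested. Calls also beyond a log2 fold change of 1.5 were 14 for the 40 genes, 13 for the 120 other ribosome biogenesis genes and 375 for all genes lower. With no filter on low counts 64 of the 120 genes, 1291 genes, 65 TIFs of the 40 genes and 1513 TIFs were lower and 1593 TIFs higher. DESeq2 called 675 TIFs higher.

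With the replicate number as a block, 17 of the 40 genes, 16 of the 120, 394 genes, 21 TIFs of the 40 genes and 425 TIFs were lower, 681 TIFs were higher, and no member had a called change of TIF share. The block cannot be read as a pairing, since the labels do not state one. Deviations of same-numbered libraries correlated at -0.24, which cannot decide whether these libraries were prepared together. A crossed pairing, chosen after seeing the data, called 36 of the 40 genes lower, 79 of the 120 lower and 1 higher, and 1722 genes lower and 1892 higher.

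With a library left out, the counts ranged from 17 to 35 for the 40 genes, 14 to 76 for the 120, 316 to 1718 genes lower and 503 to 2094 higher, 9 to 65 TIFs of the 40 genes, 283 to 1726 TIFs lower and 430 to 1871 higher, and 0 to 1 members with a called change of TIF share. A lone library was assumed to vary like the other group.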
